A study of Drosophila melanogaster with 24 samples.

Results

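The gut digestive enzyme families of Drosophila melanogaster were followed at the transcript level in mutants of sima, the gene of the fly's hypoxia-inducible factor 1-alpha, and in heterozygous controls. Members were taken by FlyBase symbol: Jon followed by a digit, a Greek letter name followed by Try, Mal-A or Mal-B followed by a digit, the Amy genes, and Lys followed by 1 capital letter. This gave 46 of the 17895 gene rows of the larval table, made up of 16 Jon, 11 Try, 8 Mal-A, 2 Mal-B, 2 Amy and 7 Lys genes. The embryo table as used here stops early and held 35 of them among 10889 gene rows, with 13 Jon, 7 Try, 7 Mal-A, 1 Amy and 7 Lys genes. The other 11 members were not analysed here in embryos.

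The members act on food in the gut lumen. Jon (Jonah) genes encode chymotrypsin-like serine proteases of the midgut, and Try genes encode trypsins, which cut proteins after lysine and arginine. Amy genes encode alpha-amylase, which cuts starch into maltose and short glucose chains, and Mal genes encode maltases, the alpha-glucosidases that release glucose from these. Lys genes encode c-type lysozymes, which break bacterial cell walls and in the fly midgut serve to digest bacteria taken in with food. The midgut forms late in embryogenesis, before feeding begins at hatching, and in flies dietary sugar is known to lower the transcripts of several of these enzymes.

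Transcripts were measured by RNA sequencing of whole animals at 4 stages, with 3 samples in each of 8 groups. Mutants carried sima alleles 1 and 20, and controls carried sima allele 1 over a wild-type chromosome, so allele 1 was shared by all animals. Mutant and control embryos were collected at 8-12 h, 12-16 h and 16-20 h after egg laying, and mutant and control larvae at 60 h. The series asked whether sima is needed to set up the glycolytic program of larvae. The labels do not say whether the samples of a group came from separate collections of animals, so p-values measure the spread between these samples, which may be technical.

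The libraries held between 6.64 M and 15.3 M (mega) fragments, estimated from the steps of low FPKM values. At 16-20 h mutant libraries were shallower than control libraries, at 6.64 to 8.17 M fragments, against 8.76 to 9.63 M fragments in controls. sima itself was lower in all 3 mutant samples than in all 3 control samples at each stage. At 16-20 h its level was 3.54, 3.25 and 3.39 FPKM in mutants, against 4.25, 4.38 and 4.10 FPKM in controls. FPKM are fragments per kilobase of transcript, scaled to the sequencing depth of the library. Of the 13 gut marker genes listed, 12 were detected in larvae and 1, Peritrophin-15b, was listed at 0 in all 6 larval samples.

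Most members lie in clusters. Joining members no more than 20000 bases apart gave 10 clusters of at least 2 genes, which held 44 of the 46 members. Jon44E, on arm 2R, and Jon74E, on arm 3L, stood alone. The 8 Mal-A genes, the 11 Try genes and the 2 Amy genes each formed 1 cluster on arm 2R. In the BDGP6 assembly, the 7 Lys genes lie at 3L:1194739-1228238, the Jon65A genes at 3L:6039155-6054443 and the 2 Jon66C genes at 3L:8391540-8393649. The Jon25B genes lie at 2L:4949941-4955144, Mal-B1 and Mal-B2 at 2L:11847226-11852881, the Jon99C genes at 3R:29922216-29926189 and the Jon99F genes at 3R:30487016-30489895. The annotation gives no intron for 31 members, which are all 11 Try, all 7 Lys, both Amy and 11 of the 16 Jon genes, whereas every Mal gene has introns. Some neighbours are known as near-identical copies (Amy-p and Amy-d, gammaTry and deltaTry, Jon99Cii and Jon99Ciii, Jon99Fi and Jon99Fii, and LysB to LysE), so how fragments were shared between them is uncertain. LysC is annotated as a pseudogene and overlaps LysD by 10 bases on the other strand, and the strand setting of the counting is not given in the sources used here.

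The families were barely expressed in young embryos and became a sizeable part of the larval transcriptome. At 8-12 h the 35 members summed to 22.1 ± 3.53 FPKM in mutants and 31.8 ± 12.8 FPKM in controls (SD, n = 3 each), and at 12-16 h to 133 ± 26.5 FPKM in mutants and 83.1 ± 35.0 FPKM in controls. At 16-20 h they summed to 1009 ± 334 FPKM in mutants and 1040.5 ± 124 FPKM in controls. In larvae the 46 members summed to 36346 ± 7407 FPKM in mutants and 25607 ± 7858 FPKM in controls, which was 7.38% ± 1.64 of all gene FPKM in mutants and 4.93% ± 1.54 in controls. The sums did not separate the genotypes at any stage, with two-sided exact permutation p of 0.3 at 8-12 h, 0.3 at 12-16 h, 1 at 16-20 h and 0.3 in larvae, where 3 samples against 3 cannot give a p under 0.1.

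**Figure D1:**
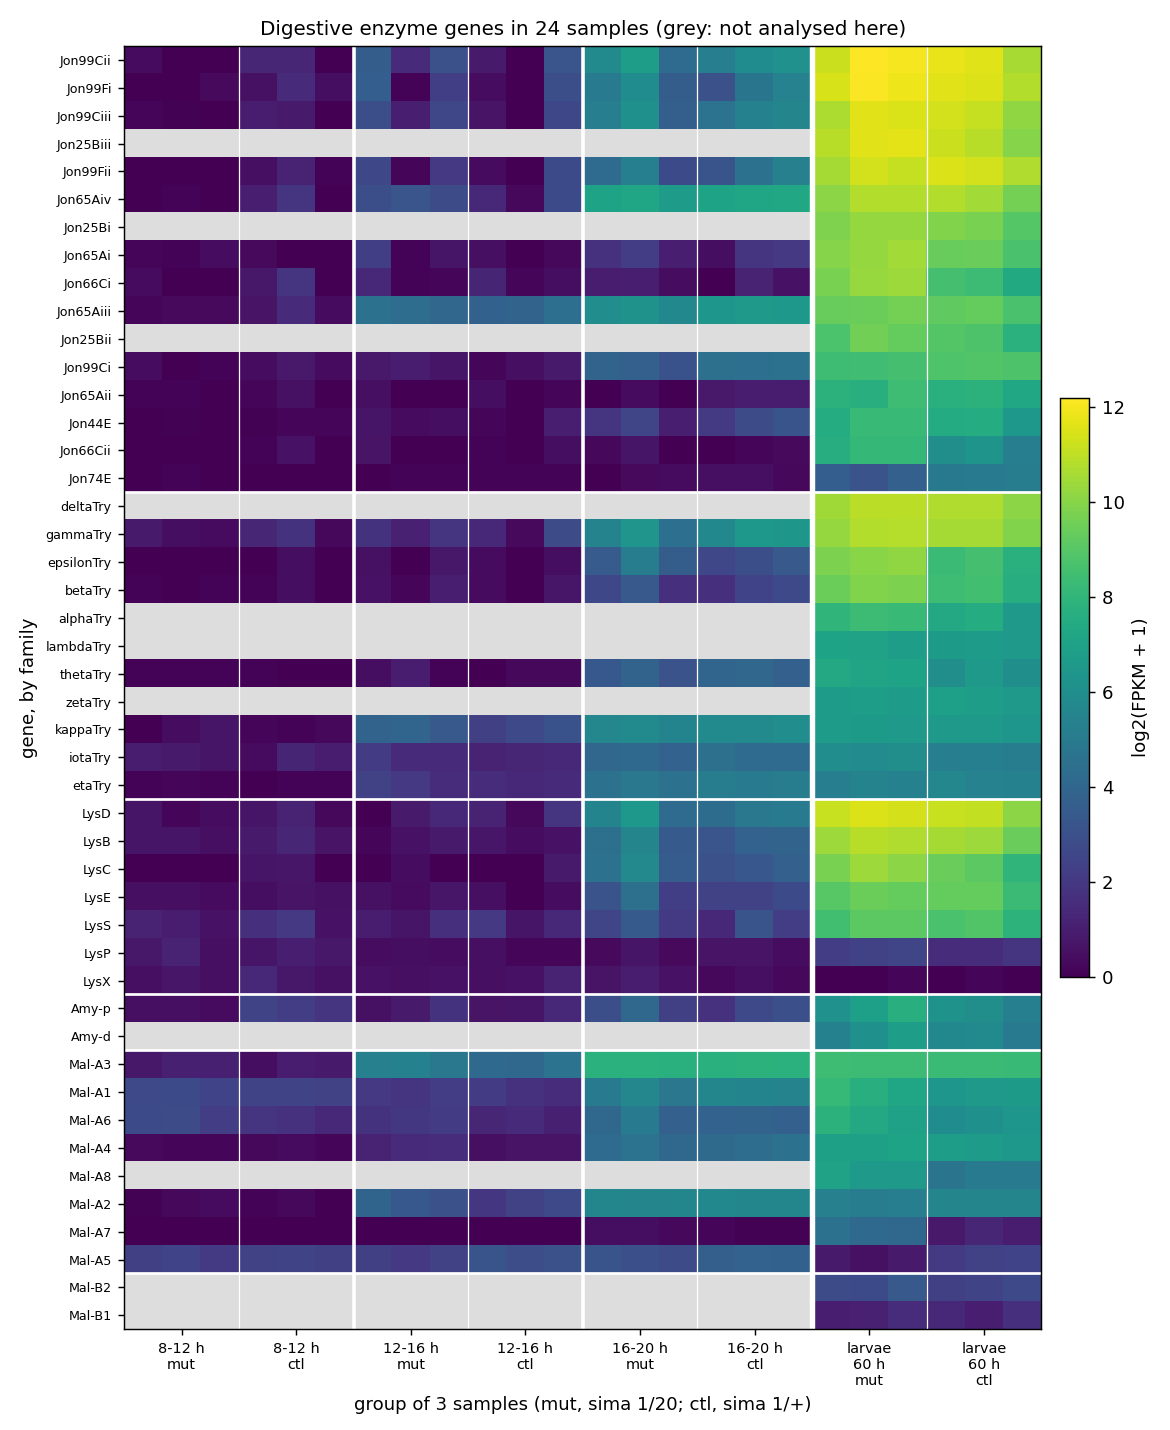
Level of each of the 46 members as log2(FPKM + 1), by family from top to bottom and by sample from left to right, with the 3 mutant samples left of the 3 control samples at each stage and grey where a gene was not analysed. For most members values are near 0 at 8-12 h, higher by 16-20 h and highest in larvae. At 8-12 h the means of Mal-A1, Mal-A5 and Mal-A6 already lie between 2.16 and 5.20 FPKM, and that of Amy-p is 3.63 FPKM in controls. LysX, Mal-A2 and Mal-A5 are lower in larvae than at 16-20 h in both genotypes.

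Proteases and lysozymes held the top of the larval range. Jon99Cii had the highest mean level in both genotypes and stood at 2414, 4686 and 4209 FPKM in mutant larvae, against 3548, 3085 and 1551 FPKM in control larvae. The groups overlapped, and the lowest of the 6 values was that of control sample 3. Among the trypsins deltaTry was highest, with 1779 ± 334 FPKM in mutants and 1512 ± 366 FPKM in controls (SD, n = 3 each), and among the lysozymes LysD, with 2689.7 ± 386 FPKM in mutants and 1845 ± 667 FPKM in controls. Mal-A3 led the maltases with 332 ± 3.46 FPKM in mutants and 311 ± 15.2 FPKM in controls, and Amy-p stood at 129 ± 63.8 FPKM in mutants and 57.8 ± 18.1 FPKM in controls. Mal-B2 reached only 7.10 ± 2.03 FPKM in mutants and 4.76 ± 0.782 FPKM in controls, and LysX, the lowest member, was at or under 0.143 FPKM in all 6 larval samples. In larvae 15 members averaged at least 1000 FPKM in mutants and 10 did in controls, and the 10 highest members held 66.6% of the summed level in mutants and 73.3% in controls.

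In late embryos the order was different. At 16-20 h Mal-A3 was the highest member in both genotypes, with 216 ± 3.96 FPKM in mutants and 221 ± 8.68 FPKM in controls (SD, n = 3 each), followed by Jon65Aiv with 128 ± 24.5 FPKM in mutants and 143 ± 8.88 FPKM in controls. The highest trypsins were kappaTry, with 48.5 ± 4.94 FPKM in mutants and 58.8 ± 3.65 FPKM in controls, and gammaTry, with 47.8 ± 30.1 FPKM in mutants and 75.3 ± 21.9 FPKM in controls. kappaTry led in mutants by less than the spread of gammaTry, and gammaTry led in controls. The highest lysozyme was LysD, with 51.1 ± 36.3 FPKM in mutants and 26.2 ± 6.42 FPKM in controls, and Amy-p stood at 8.88 ± 6.40 FPKM in mutants and 4.92 ± 2.35 FPKM in controls. Of these members, kappaTry alone had groups that did not overlap at 16-20 h, with mutants below controls, and it was not called.

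Most members varied between samples of 1 group more than other genes did, and the same samples were high or low in many of them. The median coefficient of variation of the members tested was 54.4% in 16-20 h mutants and 24.6% in 16-20 h controls, against 11.3% in mutants and 7.81% in controls over all genes. In larvae it was 19.8% in mutants and 27.9% in controls, against 11.4% in mutants and 11.8% in controls over all genes. At 16-20 h mutant sample 2 was the highest of its group in 25 of 29 members, where it was highest in 34.8% of all genes, and mutant sample 3 the lowest in 26, where it was lowest in 42.2%. In larvae control sample 3 was the lowest of its group in 35 of 45 members, or 77.8%, where it was lowest in 40.3% of all genes tested, and its median member stood at 0.626 of the other 2 control samples. Mutant sample 1 was the lowest of the mutant larvae in 30 of 45, where it was lowest in 37.2% of all genes.

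This spread differed by family. Control sample 3 stood under 0.75 of the mean of the other 2 control larvae in 14 of 16 Jon genes, 5 of 6 Lys genes, both Amy genes and 5 of 11 Try genes, but in 0 of 8 Mal-A and 0 of 2 Mal-B genes, a limit chosen after the values were seen. In 16-20 h mutant sample 2 the median deviation from the group mean, on the log2(FPKM + 1) scale, was 1.08 for Lys, 0.63 for Jon, 0.41 for Try and 0.17 for Mal-A genes. Mal-A3 varied least in both 16-20 h groups, with a coefficient of variation of 1.83% in mutants and 3.92% in controls. Over the 29 members tested in both tables, a lower ratio in control larva sample 3 went with a higher coefficient of variation at 16-20 h, with a Spearman's rho of -0.70 for mutants and -0.65 for controls. This is a description across genes that share libraries and, in part, near-identical sequences.

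**Figure D2:**
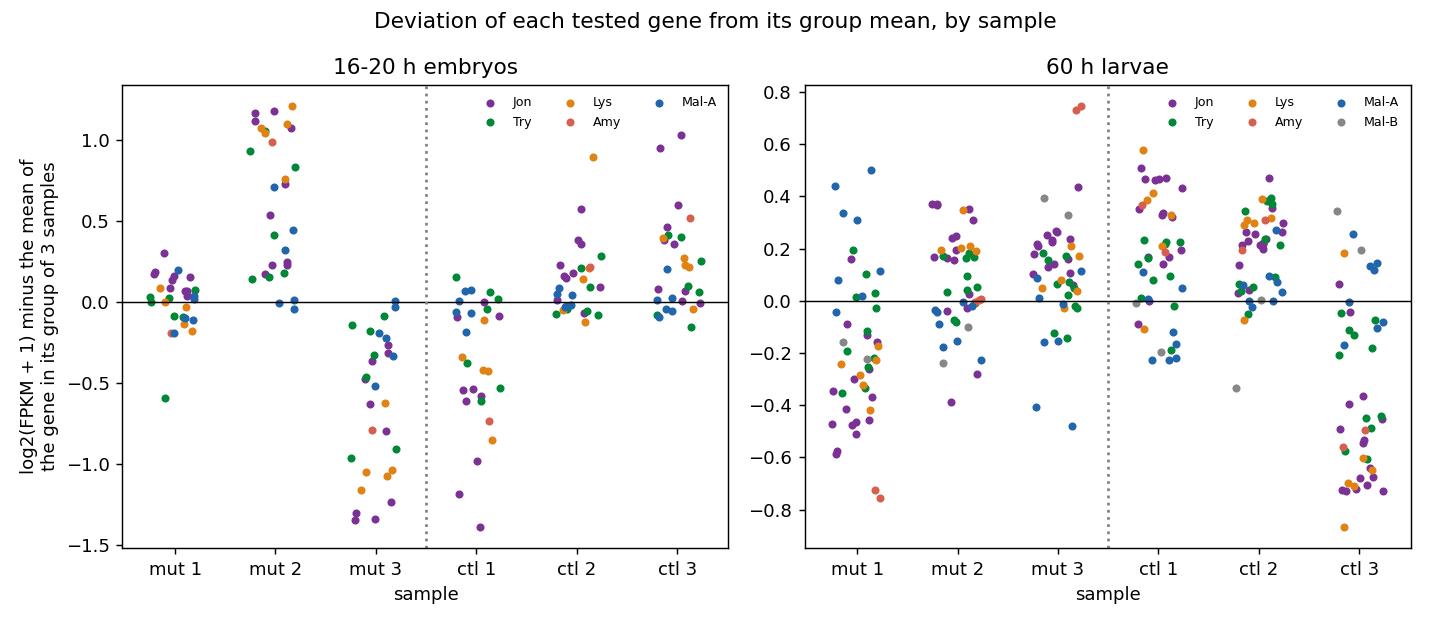
Deviation of each tested member from its group mean, in log2(FPKM + 1), for the 3 mutant (mut) and 3 control (ctl) samples at 16-20 h (left) and in 60 h larvae (right), coloured by family. Jon, Lys and Amy points lie high in 16-20 h mutant sample 2 and low in 16-20 h mutant sample 3. In larval control sample 3 most of them lie low, but Jon74E and LysP lie above 0. The median blue Mal-A point stays closer to 0 in those samples (0.17, -0.21 and 0.06). Mal-A6 reaches 0.71 in 16-20 h mutant sample 2, above some Jon points.

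In larvae, mutants were compared with controls after feeding had begun. More members were higher in mutants than lower. Of the 45 tested, 12 were higher and 2 lower by limma at an adjusted p under 0.05, which is 31.1% of them, where 9.4% of all genes tested were called (4.15% higher and 5.24% lower). The members that rose were 4 Mal-A genes, 4 Try genes, 3 Jon genes and 1 Lys gene, and those that fell were Mal-A5 and Jon74E. The median log2 fold change was 0.50 over the members and -0.03 over all genes. Fold changes are mutant over control on the log2(FPKM + 1) scale, on which changes of genes near 0 FPKM come out too small. In whole animals, fewer cells of a type and less RNA per cell cannot be told apart. In 21 members the 3 mutant values all lay above the 3 control values and in 4 all below, where the groups did not overlap in 34.8% of all genes (14.7% with mutants above and 20.1% below). At an unadjusted p under 0.05, 23 members differed, or 51.1%, where 27.6% of all genes did. Quantile normalization gave 13 members higher and 2 lower, and median centring 12 and 2, while the share of higher calls among all genes went to 55% and 53.4%, against 44.2% in the values as deposited.

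The maltase cluster held the largest change. Mal-A7, a maltase gene nearly silent in control larvae, stood at 23.4, 16.7 and 16.7 FPKM in mutant larvae, against 0.806, 1.45 and 0.884 FPKM in control larvae. The groups were far apart, and the mean ratio was 18.1. Its log2 fold change was 3.28 ± 0.18 (SE; adjusted p 0.000486, limma). The control values rest on an estimated 22.6 to 48.8 fragments and the mutant values on 676 to 784. Among the controls only sample 2 reached 1 FPKM, so Mal-A7 passed the filter on low values (1 FPKM in 3 or more samples) through its mutant values. Its neighbour Mal-A8 stood at 131, 91.4 and 92.7 FPKM in mutant larvae, against 25.1, 31.0 and 32.6 FPKM in control larvae. It rose by a log2 fold change of 1.78 ± 0.18 (SE; adjusted p 0.00448, limma). Mal-A6 had 229, 164 and 127 FPKM in mutant larvae, against 59.1, 68.2 and 83.0 FPKM in control larvae, and Mal-A1 had 289.6, 201 and 146 FPKM in mutant larvae, against 84.9, 92.4 and 100.3 FPKM in control larvae. In both the lowest mutant value lay above the highest control value, and the log2 fold changes were 1.27 ± 0.24 (SE; adjusted p 0.029, limma) for Mal-A6 and 1.14 ± 0.25 (SE; adjusted p 0.0418, limma) for Mal-A1.

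Another maltase gene of the same cluster went the other way. Mal-A5, which lies between Mal-A4 and Mal-A6, stood at 0.836, 0.450 and 0.835 FPKM in mutant larvae, against 3.20, 4.25 and 4.39 FPKM in control larvae. All mutant values were under 1 FPKM, so Mal-A5 passed the filter on low values through its control values. The log2 fold change was -1.54 ± 0.15 (SE; adjusted p 0.00439, limma). It rests on an estimated 14.5 to 26.2 fragments per mutant sample and 69.6 to 118 per control sample. The other 3 maltases of the cluster were not called. Mal-A2 had a log2 fold change of -0.32 ± 0.08 (SE; adjusted p 0.0574, limma), Mal-A3 of 0.10 ± 0.09 (SE; adjusted p 0.55, limma) and Mal-A4 of 0.29 ± 0.11 (SE; adjusted p 0.144, limma). In all 8 Mal-A genes the groups did not overlap, with mutants above controls in 6 and below in Mal-A2 and Mal-A5. The summed Mal-A level was 1169.6, 961 and 882 FPKM in mutants, against 649.8, 666 and 650.0 FPKM in controls. Neither of the 2 Mal-B genes was called.

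**Figure D3:**
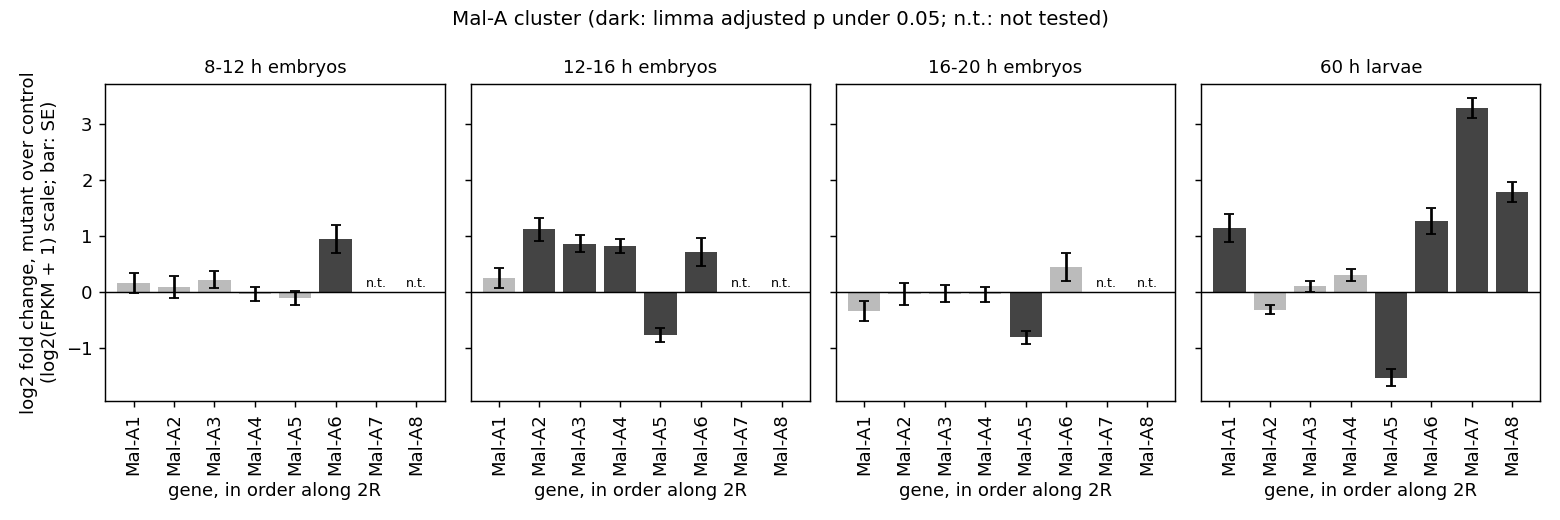
Log2 fold change of the Mal-A genes, mutant over control, in the order in which they lie on arm 2R, at the 3 embryo stages and in larvae; error bars are standard errors, dark bars have a limma adjusted p under 0.05, and n.t. marks genes not tested. Mal-A5 is negative at 12-16 h, at 16-20 h and in larvae, whereas Mal-A7 and Mal-A8 reach 3.28 and 1.78 in larvae.

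Of the 11 trypsins, 4 rose. epsilonTry stood at 895, 1048 and 1140.0 FPKM in mutant larvae, against 317, 392 and 212 FPKM in control larvae, and its neighbour betaTry at 696, 941 and 871 FPKM in mutant larvae, against 336, 364 and 192 FPKM in control larvae. The groups were separated in both, with log2 fold changes of 1.78 ± 0.24 (SE; adjusted p 0.0128, limma) for epsilonTry and 1.53 ± 0.27 (SE; adjusted p 0.025, limma) for betaTry. thetaTry had 165, 137 and 132 FPKM in mutant larvae, against 65.2, 96.6 and 65.5 FPKM in control larvae. Its log2 fold change was 0.95 ± 0.18 (SE; adjusted p 0.0316, limma). iotaTry rose by a smaller amount, 0.72, at a limma adjusted p of 0.0065. The 7 trypsins not called had log2 fold changes from -0.11 for etaTry to 1.03 for alphaTry, and included the most abundant ones, gammaTry and deltaTry. In 7 of the 11 trypsins all mutant values lay above all control values.

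Of the 16 Jonah proteases, 3 rose and 1 fell. The adjacent genes Jon66Ci and Jon66Cii both rose. Jon66Cii stood at 192, 274 and 277 FPKM in mutant larvae, against 64.5, 79.7 and 36.4 FPKM in control larvae, and Jon66Ci at 842, 1258 and 1339 FPKM in mutant larvae, against 380.3, 323 and 168 FPKM in control larvae. Control sample 3 was the lowest in both, and the groups did not overlap. The log2 fold changes were 2.07 ± 0.31 (SE; adjusted p 0.0157, limma) for Jon66Cii and 2.03 ± 0.35 (SE; adjusted p 0.0228, limma) for Jon66Ci. Jon65Ai, an intronless gene of the Jon65A cluster, had 1019, 1244 and 1441 FPKM in mutant larvae, against 653, 685 and 417 FPKM in control larvae, and rose by a log2 fold change of 1.10 ± 0.24 (SE; adjusted p 0.0427, limma). Jon74E, a multi-exon Jonah gene that lies alone, had 11.7, 7.70 and 12.3 FPKM in mutant larvae, against 29.9, 32.6 and 33.4 FPKM in control larvae. Its mutant values all lay under the control values, with a log2 fold change of -1.53 ± 0.17 (SE; adjusted p 0.00687, limma). The 12 others were not called, among them the most abundant, Jon99Cii (log2 fold change 0.50, limma adjusted p 0.47).

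Among the lysozymes LysP, a gene described from adult salivary glands, rose by 0.72 ± 0.13 (SE; adjusted p 0.0264, limma) on the log2 scale at a low level of 3.58 to 4.82 FPKM in mutants, against 1.90 to 2.55 FPKM in controls. The 5 other lysozymes tested were not called, with log2 fold changes from 0.29 for LysE to 1.23 for LysC, and LysX did not pass the filter on low values. Neither amylase was called, and both varied widely: Amy-p stood at 71.6, 119 and 198 FPKM in mutant larvae, against 72.2, 63.8 and 37.4 FPKM in control larvae, and Amy-d at 39.7, 67.9 and 114 FPKM in mutant larvae, against 50.2, 54.7 and 30.9 FPKM in control larvae. The amylase groups overlapped, with mutant sample 3 the highest of the 6 in both genes.

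**Figure D4:**
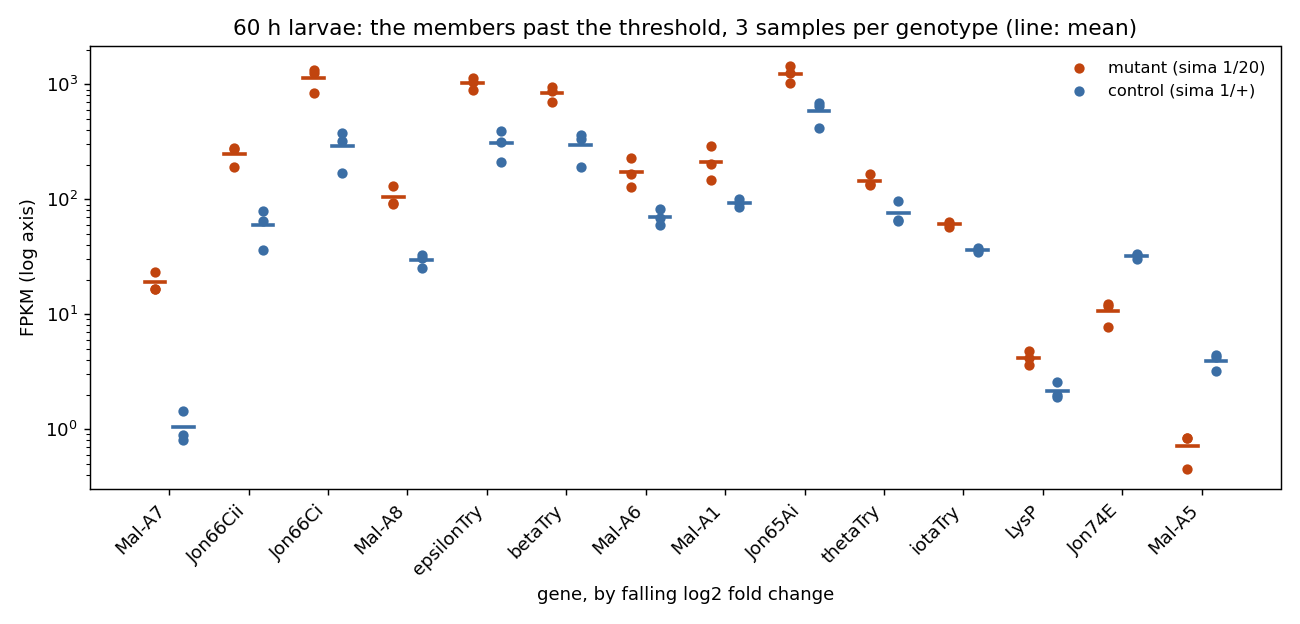
FPKM on a log axis in each larval sample for the 14 members called, mutants left of controls for each gene, with a line at the mean of 3 samples. The mutant points lie above the control points in the 12 members from Mal-A7 to LysP and below them in Jon74E and Mal-A5.

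The larval calls depended on the samples to different degrees. The calls of Mal-A5, Mal-A7, Mal-A8, Jon74E and iotaTry held with each of the 6 samples left out in turn, and those of the 9 others were lost in 3 to 5 of the 6 fits. The count of 14 fell to 5 without mutant sample 2, 6 without control sample 1, 7 without mutant sample 3 and 8 without control sample 2. Without control sample 3, the sample that was low in most Jon and Lys genes, 10 members were called, 8 higher and 2 lower, and the log2 fold change of epsilonTry was 1.53 (limma adjusted p 0.0182).

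Genes of other tissues also differed in these larvae. None of 10 gut markers tested was called by limma (3 at an unadjusted p under 0.05), their median log2 fold change was -0.02, and their summed level was 665 to 835 FPKM in mutants, against 676 to 849 FPKM in controls. Muscle genes were lower, with 4 of 6 called and a summed level of 4998 to 7208 FPKM in mutants, against 9877 to 10992 FPKM in controls. The 2 salivary gland genes tested were higher, with a list sum of 127 to 168 FPKM in mutants, against 16.6 to 23.9 FPKM in controls, while Sgs3 and Sgs7 were listed at 0 in all 6 samples and Sgs8 in the controls. None of 5 fat body genes was called (1 at an unadjusted p under 0.05), at a median log2 fold change of -2.17 and a list sum of 791 to 2881 FPKM in mutants, against 3666 to 5440 FPKM in controls. None of 5 hemocyte genes (0 at an unadjusted p under 0.05) and 1 of 4 enteroendocrine genes (AstA, 0.55 ± 0.12 SE, limma adjusted p 0.0432) was called. The part of these differences in the enzyme result was not tested.

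Of 16 digestive enzymes tested outside the families, 1 was called by limma and 4 had an unadjusted p under 0.05. Over all genes tested 9.4% were called and 27.6% had an unadjusted p under 0.05, so both counts were near the background. The gene called was tobi, an alpha-glucosidase gene known to respond to dietary sugar and protein in flies. Its log2 fold change was 0.79 ± 0.14 (SE; adjusted p 0.0264, limma). Of 19 nutrient and hormone signalling genes, 5 were higher. The 4 with the largest changes were Thor, which encodes the translation inhibitor 4E-BP (2.62 ± 0.28 SE, limma adjusted p 0.006), daw, which encodes an activin-type ligand known to lower digestive enzyme transcripts on sugar-rich food (1.34 ± 0.09 SE, limma adjusted p 0.000949), sug, which encodes a sugar-responsive transcription factor (1.24 ± 0.21 SE, limma adjusted p 0.0234), and the insulin-like peptide gene Ilp6 (0.75 ± 0.13 SE, limma adjusted p 0.0225). Their part in the enzyme changes was not tested.

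At 12-16 h, when the enzyme genes begin to be expressed, several maltase and protease genes were higher in mutants. Of 29 members tested, 7 were higher and 1 lower, which is 27.6%, where 31.7% of all genes were called (18% higher and 13.6% lower), so the share called was near the background. The groups did not overlap in 9 members, 8 of them with mutants above, where this held for 40.9% of all genes (21.1% above and 19.8% below). The median log2 fold change was 0.31 over the members and 0.02 over all genes. The maltases made up 5 of the 8 calls. Mal-A3 stood at 38.6, 40.0 and 28.4 FPKM in mutant embryos, against 17.0, 16.6 and 24.1 FPKM in control embryos. Mal-A2 stood at 14.2, 9.21 and 7.04 FPKM in mutant embryos, against 2.75, 4.05 and 5.52 FPKM in control embryos, and Mal-A4 at 1.35, 1.77 and 1.97 FPKM in mutant embryos, against 0.426, 0.575 and 0.574 FPKM in control embryos. The groups were separated in all 3, and the log2 fold changes were 1.11 ± 0.20 (SE; adjusted p 0.00118, limma) for Mal-A2, 0.86 ± 0.16 (SE; adjusted p 0.00136, limma) for Mal-A3 and 0.82 ± 0.13 (SE; adjusted p 0.000627, limma) for Mal-A4. Mal-A6 rose as well, with 2.45, 2.95 and 3.50 FPKM in mutant embryos, against 1.48, 1.71 and 1.10 FPKM in control embryos and a log2 fold change of 0.71 ± 0.25 (SE; adjusted p 0.0404, limma). Mal-A5 again went the other way, with 3.95, 3.07 and 4.24 FPKM in mutant embryos, against 7.89, 6.36 and 7.03 FPKM in control embryos. Its log2 fold change was -0.77 ± 0.12 (SE; adjusted p 0.000605, limma).

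The 3 proteases called at 12-16 h were all higher. The trypsin gene kappaTry stood at 13.9, 14.5 and 9.74 FPKM in mutant embryos, against 4.03, 5.40 and 7.51 FPKM in control embryos. Its log2 fold change was 1.06 ± 0.19 (SE; adjusted p 0.0012, limma). etaTry, another trypsin gene of the same cluster, had 4.10, 3.09 and 1.96 FPKM in mutant embryos, against 1.94, 1.52 and 1.85 FPKM in control embryos, with a log2 fold change of 0.52 ± 0.15 (SE; adjusted p 0.0149, limma). The Jonah gene Jon65Aiv had 6.57, 8.37 and 6.17 FPKM in mutant embryos, against 1.64, 0.202 and 5.66 FPKM in control embryos. Its control values spread widely and its mutant values lay just above the highest of them, with a log2 fold change of 1.53 ± 0.48 (SE; adjusted p 0.0246, limma). The calls at this stage held no Lys or Amy gene. With quantile normalization 7 members were higher and 1 lower, and with median centring 6 and 1, while the share of higher calls among all genes was 38.4% and 43.1%, against 56.9% in the values as deposited. The calls of Mal-A2, Mal-A3, Mal-A4, Mal-A5 and kappaTry held with each of the 6 samples left out, and the count fell to 5 without control sample 2 or mutant sample 2.

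Transcripts of bcd and CycB, from the list of yolk and maternal RNA, were also higher in mutants at 12-16 h. Of 3 yolk and maternal genes tested, 2 were called, bcd (3.50 ± 0.44 SE, limma adjusted p 0.00013) and CycB (3.45 ± 0.35 SE, limma adjusted p 2.30e-05), and the list summed to 143 to 298 FPKM in mutants, against 9.07 to 24.7 FPKM in controls. Of 5 gut markers, 1 was higher (Myo61F, 0.51) and 2 lower (GATAe, -0.31, and lab, -0.27). Of 3 other digestive enzymes, 2 were higher, the serine protease gene yip7 (1.86 ± 0.28 SE, limma adjusted p 0.00039) and the lipase gene mag (0.46 ± 0.16 SE, limma adjusted p 0.0465). The origin of the bcd and CycB transcripts and their part in the enzyme result were not tested. The calls held no muscle, fat body, hemocyte or salivary gland gene, and 2 of 6 enteroendocrine genes were higher. Of 12 nutrient signalling genes, 1 was higher and 4 were lower, among them sima itself and Hph, the gene of the HIF prolyl hydroxylase (-1.96 ± 0.14 SE, limma adjusted p 6.15e-07).

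At 16-20 h most members did not pass the test. Of 29 tested, 2 were higher and 2 lower, which is 13.8%, where 15.8% of all genes were called (8.64% higher and 7.18% lower). The groups did not overlap in 7 members, with mutants above in epsilonTry and below in 6 (Mal-A5, Jon99Ci, Jon65Aiii, etaTry, iotaTry and kappaTry), where this held for 40.9% of all genes (19.4% above and 21.5% below). Median centring gave 2 members higher and 3 lower, while the share of higher calls among all genes was 41.3%, against 54.6% in the values as deposited. Jon99Ci, the Jonah gene of the Jon99C cluster that has an intron, had 13.5, 12.3 and 7.47 FPKM in mutant embryos, against 21.8, 20.8 and 23.0 FPKM in control embryos. The groups were apart, with a log2 fold change of -0.96 ± 0.20 (SE; adjusted p 0.00535, limma). Mal-A5 had 7.96, 6.80 and 5.85 FPKM in mutant embryos, against 12.1, 13.2 and 12.996 FPKM in control embryos, a log2 fold change of -0.82 ± 0.12 (SE; adjusted p 0.000788, limma). Both calls held with each of the 6 samples left out.

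The 2 rises at 16-20 h were not stable. epsilonTry had 10.2, 34.3 and 11.3 FPKM in mutant embryos, against 5.12, 6.71 and 9.57 FPKM in control embryos, with a log2 fold change of 1.10 ± 0.35 (SE; adjusted p 0.0432, limma). LysC had 23.2, 52.0 and 10.7 FPKM in mutant embryos, against 7.12, 8.93 and 12.5 FPKM in control embryos, with overlapping groups and a log2 fold change of 1.26 ± 0.41 (SE; adjusted p 0.0474, limma). Without mutant sample 2 the log2 fold change was 0.57 for epsilonTry (limma adjusted p 0.149) and 0.71 for LysC (limma adjusted p 0.188), and neither was called. The LysC call was lost in 5 of the 6 fits with 1 sample left out, all but that without mutant sample 3, and the epsilonTry call in 3, those without control sample 1, control sample 2 or mutant sample 2. The count fell to 2 without control sample 2, and without mutant sample 2 it was 5, with 0 higher and 5 lower. bcd and CycB were higher in mutants at this stage too, with log2 fold changes of 2.01 and 2.05 and a list sum of 93.5 to 142 FPKM in mutants, against 19.8 to 34.3 FPKM in controls, and their part in the result was not tested. The calls held no gut, enteroendocrine, muscle or fat body gene, and Sgs7 of the salivary gland list and Hml of the hemocyte list were lower. The other digestive enzymes in the table summed to 145 to 166 FPKM in mutants, against 255 to 283 FPKM in controls, with 1 of 3 tested, mag, called lower. Of 12 nutrient signalling genes 1 was higher and 3 were lower, with Hph at -1.01 ± 0.14 (SE; adjusted p 0.000265, limma).

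At 8-12 h, before most of the genes start, 1 of 29 members was higher and 1 lower, which is 6.9%, where 5.63% of all genes were called (2.54% higher and 3.1% lower). The groups did not overlap in 6 members, 2 with mutants above and 4 below, where this held for 30% of all genes (15.4% above and 14.7% below). Amy-p stood at 0.410, 0.411 and 0.290 FPKM in mutant embryos, against 4.70, 3.60 and 2.59 FPKM in control embryos. The groups were separated, with a log2 fold change of -1.73 ± 0.42 (SE; adjusted p 0.0299, limma), and the mutant values rest on an estimated 6.04 to 9.05 fragments each. Mal-A6 had 5.70, 5.87 and 3.71 FPKM in mutant embryos, against 2.63, 2.33 and 1.53 FPKM in control embryos, with a log2 fold change of 0.94 ± 0.25 (SE; adjusted p 0.039, limma). Both calls were lost in some of the 6 fits with 1 sample left out, Amy-p in 4 and Mal-A6 in 5, and the count of members called was 0 or 1 in each. Of the 10 Jon genes tested 9 had a negative log2 fold change, none of them called, where the median over all genes was 0.01. The summed Jon level was 1.38, 0.676 and 0.941 FPKM in mutants, against 6.45, 14.1 and 1.14 FPKM in controls. These levels are near the floor. The highest Jon mean in mutants was 0.222 FPKM, that of Jon65Aiii, at an estimated 1.88 to 2.83 fragments a sample. Among the markers mex1 of the gut, Orcokinin of the enteroendocrine list and Pxn of the hemocytes were higher in mutants, Hph was lower (-1.67 ± 0.14 SE, limma adjusted p 2.50e-06), and the calls held no muscle (3 of 3 at an unadjusted p under 0.05), fat body, salivary gland, maternal or other digestive enzyme gene.

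The difference between mutants and controls changed over the embryo stages in 8 members by limma's moderated F test, where 14.6% of all genes were called. They were the maltase genes Mal-A2, Mal-A3, Mal-A4 and Mal-A5, the trypsin genes kappaTry and etaTry, Jon99Ci and Amy-p. In 6 of them the difference at 16-20 h was called lower than that at 12-16 h. Over all genes 10.8% were called for that contrast, 4.29% upward and 6.47% in that direction. The change in log2 fold change was -1.33 ± 0.27 (SE; adjusted p 0.00799, limma) for kappaTry, -1.26 ± 0.28 (SE; adjusted p 0.0136, limma) for Jon99Ci and -1.16 ± 0.28 (SE; adjusted p 0.0197, limma) for Mal-A2. It was -0.93 for etaTry, -0.89 for Mal-A3 and -0.86 for Mal-A4. At 16-20 h, Mal-A2 stood at 48.1, 45.5 and 47.3 FPKM in mutant embryos, against 50.9, 47.4 and 47.1 FPKM in control embryos, and Mal-A3 at 219, 218 and 212 FPKM in mutant embryos, against 212, 229 and 223 FPKM in control embryos. The groups overlapped there in both genes. The F test called 4 members without 12-16 h control sample 1, and 5 without 12-16 h mutant sample 2, 16-20 h control sample 1 or 16-20 h control sample 3.

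**Figure D5:**
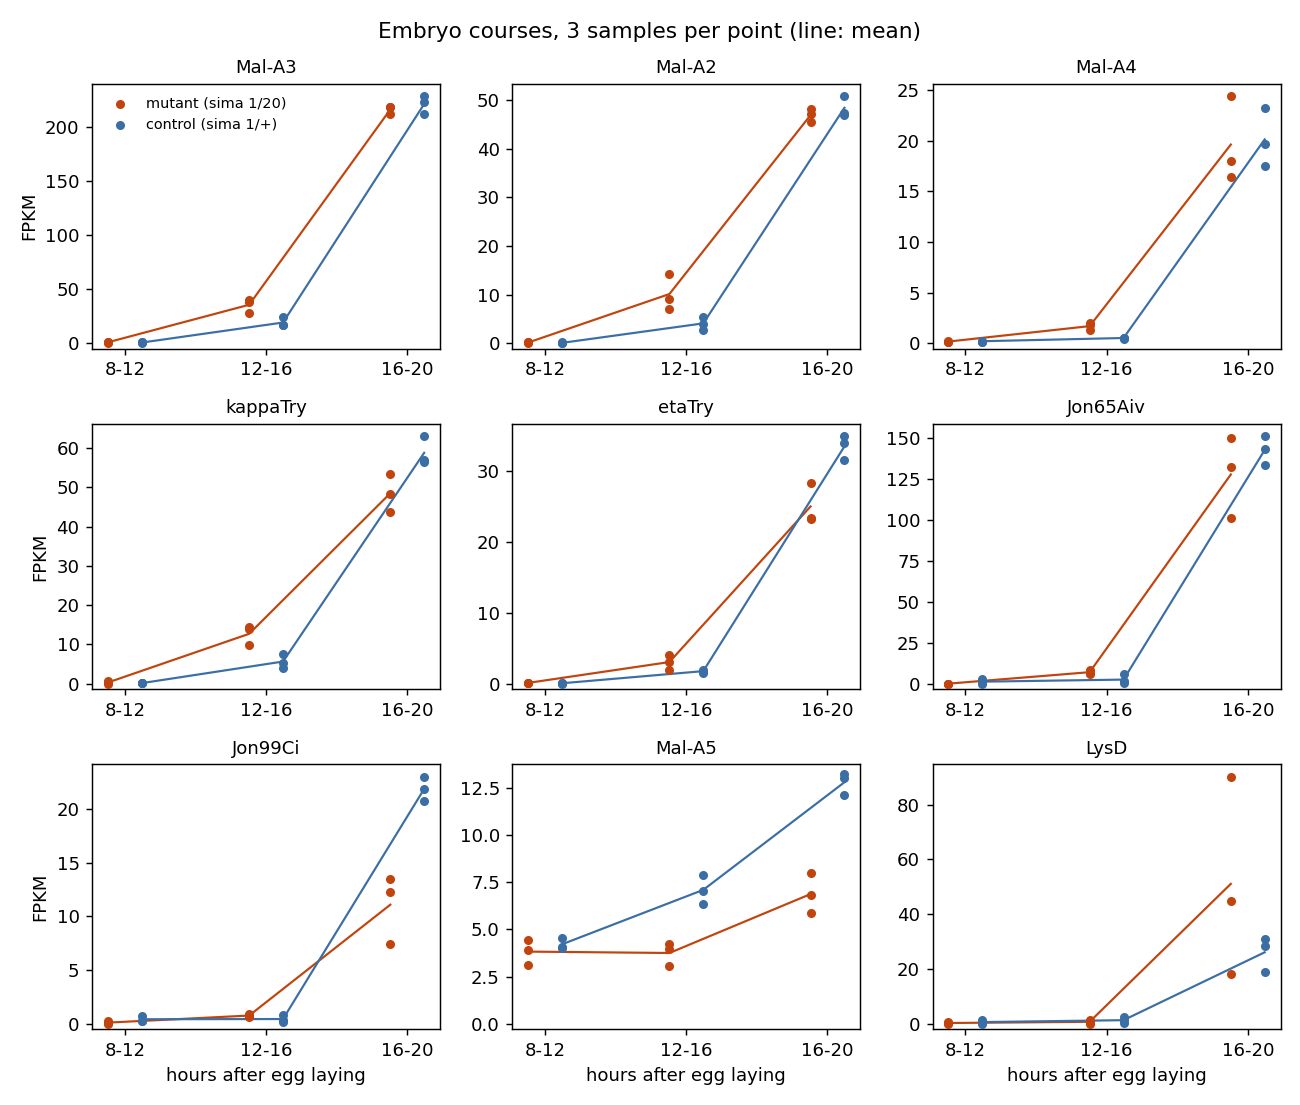
FPKM of 9 members in 8-12 h, 12-16 h and 16-20 h embryos, with 3 mutant samples drawn left of 3 control samples at each stage and lines through the means; the 9 were chosen with their values known. Mal-A2, Mal-A3, Mal-A4 and kappaTry are higher in mutants at 12-16 h, Mal-A5 is lower in mutants at 12-16 h and 16-20 h, and LysD shows the spread among 16-20 h mutants.

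The families rose between 12-16 h and 16-20 h in both genotypes. In mutants 27 of 29 members rose between these stages, where 63.9% of all genes were called, 35.8% rising and 28.1% falling. In controls 27 of 29 rose as well, where 67.8% of all genes were called, 38% rising and 29.7% falling. The filter on low values (1 FPKM in 3 or more samples) took all embryo stages together, for members and all genes alike. LysC, LysE, Jon99Ci, thetaTry and epsilonTry were under 1 FPKM in every sample before 16-20 h. LysB, betaTry, Jon44E and Jon65Ai reached 1 FPKM in only 1 sample before 16-20 h. All of these members therefore passed through their 16-20 h values. The 6 members not tested were left out because they stayed low. The counts therefore favour members that rise, and how far the filter set them was not tested. These contrasts share their samples with the comparisons of genotypes. The median log2 fold change from 12-16 h to 16-20 h was 2.71 in mutants and 3.20 in controls. In mutants the largest rise was that of LysD (4.68, limma adjusted p 1.01e-06), and in controls that of Jon65Aiv (5.70, limma adjusted p 3.54e-08). The smallest called rise was that of Mal-A5 in both, with 0.73 in mutants and 0.77 in controls.

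A smaller set started earlier. From 8-12 h to 12-16 h, 11 members rose and 2 fell in mutants, where 64.9% of all genes were called (35.8% rising and 29% falling), and 7 rose and 2 fell in controls, where 68.1% were called (36% rising and 32.1% falling). Mal-A3, Mal-A2, Mal-A4, kappaTry, etaTry and Jon65Aiii rose in both genotypes. For Mal-A3 the log2 fold change was 4.20 in mutants and 3.56 in controls, and for Jon65Aiii 4.05 in mutants and 3.24 in controls. Mal-A1 fell in both, with -0.58 in mutants and -0.67 in controls. Mal-A6 fell in mutants (-0.61 ± 0.25 SE, limma adjusted p 0.0424), with -0.37 ± 0.25 (SE; adjusted p 0.197, limma) in controls. Mal-A5 had -0.02 ± 0.12 (SE; adjusted p 0.894, limma) in mutants and rose in controls (0.63 ± 0.12 SE, limma adjusted p 0.000353), and Amy-p had 0.62 ± 0.42 (SE; adjusted p 0.21, limma) in mutants and fell in controls (-1.29 ± 0.42 SE, limma adjusted p 0.0134).

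The embryo and larval tables may have been scaled separately, so levels of late embryos and larvae are set side by side without a test. Over the 35 members in both tables the larval mean was a median of 38.6 times the 16-20 h mean in mutants and 20.9 times in controls. It was over 100 times in 7 members in mutants and 7 in controls. Jon66Ci had the largest ratio in controls, 506. Its 16-20 h control values were 0, 1.22 and 0.499 FPKM, an estimated 0, 9.05 and 4.02 fragments, so that ratio rests on few fragments. Jon65Aii had the largest ratio in mutants, 2806. Its 16-20 h mutant values were 0, 0.275 and 0 FPKM, an estimated 1.87 fragments in 1 library, so that ratio and its rank rest on that library. The ratio was under 1 for LysX, Mal-A5 and Mal-A2 in both genotypes. Among the genes that rose early in both genotypes the ratio varied: the larval mean of Mal-A3 was 1.54 times its 16-20 h mean in mutants and 1.40 times in controls, that of etaTry 1.60 times in mutants and 1.29 times in controls, and that of kappaTry 2.03 times in mutants and 1.57 times in controls. For Mal-A4 it was 6.39 times in mutants and 5.09 times in controls, and for Jon65Aiii 11.5 times in mutants and 6.09 times in controls. Over the 4 stages 23 of the 45 members tested were called in at least 1 comparison of mutants with controls, where 33.3% of all genes tested were. Of the 29 members tested in both tables, 3 were called both in larvae and at an embryo stage, where 4.97% of all such genes were. Mal-A5 was lower at 12-16 h, 16-20 h and in larvae, and these calls held with each sample left out. Mal-A6 was higher at 8-12 h, 12-16 h and in larvae, but its calls were lost in 5, 5 and 4 of 6 such fits. epsilonTry was higher at 16-20 h and in larvae, with the call lost in 3 of 6 fits at each stage.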

How the data were processed

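The authors deposited 1 table of FPKM values for 18 embryo samples and 1 for 6 larval samples, with a column per sample. Libraries were TruSeq stranded mRNA libraries made from total RNA, per the labels' protocols. featureCounts, DESeq2 and the build BDGP6 are named in the submitters' processing notes without a version or role, and the aligner is not given in the sources used here. Of the 14337 rows read from the embryo table, the last is incomplete and was left out. Genes later in its order were not analysed here in embryos.

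Gene rows were matched to symbols by FlyBase identifier in the Ensembl annotation of BDGP6 (17855 of 17895 matched in larvae and 10865 of 10889 in embryos). Values were taken as log2(FPKM + 1). A gene was tested where 3 or more samples of its table reached 1 FPKM (6784 embryo genes, 8619 larval genes). The embryo table (18 samples, 6 groups) and the larval table (6 samples, 2 groups) were fitted separately with limma 3.58.1 in R 4.3.3, using eBayes with its trend option and Benjamini-Hochberg adjustment over all genes tested at 0.05. Of the members, 29 of 35 were tested in embryos and 45 of 46 in larvae. Fragment numbers were estimated from the smallest steps of the FPKM values and annotated exon lengths. Sums were compared with two-sided exact permutation tests. The fit was also run on simulated data in which every gene had the same spread beyond counting noise and varied independently. The members varied more than other genes and moved together between samples, so that run does not show how the fit performs on them. Tables and figures were made with Python 3.11.15.

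Members called in a comparison of mutants with controls are given in full, up to 12 a comparison by size of change, with the highest member of each family. Members and lists were chosen with earlier results of these data known. The alternatives were a pseudocount of 0.1, dropping the filter, raising it to 5 FPKM, scaling by quantiles or by medians, eBayes with the trend off, a replicate block, voom on estimated fragments, the 2 groups alone, and leaving out each sample. No 2 replicates agreed within sampling noise.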

Additional observations from a re-analysis of the deposited data

Results flagged for a closer look

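The difference between mutants and controls varied over the 3 embryo stages in 8 members by limma's moderated F test. The limma adjusted p was 0.0113 for Mal-A4, 0.0145 for kappaTry and 0.0254 for etaTry. It was 0.0255 for Mal-A2, 0.0259 for Jon99Ci and 0.0262 for Mal-A5, and 0.0326 for Amy-p and 0.0348 for Mal-A3.

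In 4 members all mutant values lay on one side of all control values in larvae and on the other side at an embryo stage. This is 13.8% of the 29 members tested in both tables, where 13.5% of all such genes did so, so the share was near the background. The tables were fitted separately, so these differences between stages were not tested. Jon65Aiii had a log2 fold change of 0.40 in larvae, -0.53 at 8-12 h and -0.54 at 16-20 h. Mal-A2 had -0.32 in larvae and 1.11 at 12-16 h. iotaTry had 0.72 in larvae and -0.33 at 16-20 h, and kappaTry 0.10 in larvae and -0.28 at 16-20 h. Of these single-stage values, iotaTry in larvae and Mal-A2 at 12-16 h passed the threshold.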

How the results depend on the processing

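No call of a named member changed direction under the alternatives. Of the 28 named calls, 7 held with each sample left out and under every alternative that tested the gene. They were Mal-A5, Mal-A7 and Jon74E in larvae, Mal-A3, Mal-A4 and Mal-A5 at 12-16 h, and Mal-A5 at 16-20 h. In larvae Mal-A5 was tested under 7 alternatives, where Mal-A7 and Jon74E were tested under 8. None of its larval values reached the 5 FPKM of the raised filter. At 8-12 h the count of 2 became 1 with no filter, 0 with quantile normalization and 1 in the fit to the 2 groups alone. At 12-16 h the count of 8 became 5 with a pseudocount of 0.1 and 5 in the fit to the 2 groups alone. At 16-20 h the count of 4 became 1 with a pseudocount of 0.1, and voom and the fit to the 2 groups alone gave 0 higher and 4 lower. In larvae the count of 14 became 8 with no filter. The F test count of 8 became 3 with a pseudocount of 0.1. The causes were not tested.

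With 1 sample left out, the counts ran from 0 to 1 at 8-12 h, 5 to 9 at 12-16 h, 2 to 6 at 16-20 h, 5 to 13 in larvae and 4 to 9 for the F test. Between stages they ran from 11 to 15 and 24 to 28 in mutants and from 7 to 10 and 26 to 28 in controls. An arm left with 2 samples shares the spread of the fit.

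Replicate numbers did not pair the samples: the mean correlation of same-numbered deviations was 0.03, -0.08, -0.03 and -0.31 from the youngest stage to larvae. With a replicate block 3 members were called in larvae and 0 by the F test.

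Over all genes the share of calls that were higher moved with scaling. It was 56.9% at 12-16 h, 38.4% with quantile normalization and 43.1% with median centring, and in larvae 44.2%, 55% and 53.4%. At 16-20 h it was 54.6%, and 41.3% with median centring. Under these scalings the members stayed at 7 or 6 higher and 1 lower at 12-16 h, and 12 or 13 higher and 2 lower in larvae. Depth limits the members at low levels, such as Amy-p at 8-12 h.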
